A study of Mus musculus with 9 samples.

Results

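The genes described are 10 of the epidermal growth factor (EGF) system in cultured 4T1 mouse breast cancer cells, chosen by name from 52306 named genes. They are the receptors Egfr, Erbb2 and Erbb3, the ligands Areg (amphiregulin), Ereg (epiregulin), Hbegf (heparin-binding EGF-like growth factor), Tgfa (transforming growth factor alpha), Btc (betacellulin) and Epgn (epigen), and Errfi1, a feedback inhibitor of the receptors also known as Mig6. RNA was sequenced at day 2 in 9 libraries, 3 from a negative control (NC), 3 from cells given MK1775 (adavosertib, an inhibitor of the Wee1 kinase) and 3 labelled as Wee1 knockdown by small interfering RNA (siRNA). All were grown in DMEM with fetal bovine serum, and the study set each treated group against NC. The MK1775 dose, the siRNA sequences and what the NC cells were given are not stated in the labels, so vehicle or transfection and treatment cannot be told apart. The numbers of the siRNA libraries may stand for replicates or for different siRNAs, and separate cultures are not stated for any group. A p-value here therefore covers only the spread among these samples, which may be technical.

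EGF ligands are made as membrane-anchored precursors and released by proteases of the ADAM family. A ligand binds its receptor, the receptor pairs with another of the family and phosphorylates its own tail, and adaptors then switch on Ras and the MAP kinase cascade, and PI3K and Akt. Areg and Tgfa bind Egfr, while Ereg, Hbegf and Btc bind Egfr and Erbb4. Erbb2 has no known ligand and works as a partner, and Erbb3 binds neuregulins and has little kinase activity of its own. Amphiregulin is the ligand through which estrogen drives duct growth in the mammary gland, and ERBB2 (HER2) is amplified in a subset of human breast cancers.

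Expression was given in FPKM (fragments counted per length of transcript and per size of the library), summed over the transcripts of a gene. The total FPKM was 321551 to 332950 per library, and the number of reads is not known, so no counting interval is given. Wee1 was not lower in the libraries labelled Wee1 siRNA than in NC but higher, at 13.1, 15.1 and 15.3 against 11.5, 10.5 and 11 FPKM. It was 15, 14.7 and 16.8 FPKM with MK1775. On the log2(FPKM + 1) scale the rise of Wee1 was 0.37 under the siRNA label (95% interval 0.19 to 0.55, limma adjusted p = 0.00633). With MK1775 it was 0.46 (0.28 to 0.64, limma adjusted p = 0.00226). Every direction for the siRNA group therefore rests on its label alone. Of 6 epithelial markers, 4 had a mean of at least 1 FPKM in every group (Krt8, Krt18, Krt19 and Cdh1), and Epcam and Cldn7 stayed under it. The 6 summed to 410 to 476 FPKM in NC, 763 to 781 with MK1775 and 705 to 714 under the siRNA label. Nearly all of this was Krt8 (means of 196, 290 and 267 FPKM in NC, MK1775 and siRNA-label libraries) and Krt18 (251, 475 and 435). Cdh1 (2.8, 5.32 and 5.35) and Epcam (0.0573, 0.435 and 0.421) were also higher in the treated groups. Krt19 moved little (1.45, 1.71 and 1.74), and Cldn7 was lower in the treated groups (0.084, 0.0142 and 0.037). Summed immune markers (7) were at most 0.0263 FPKM in NC and 0.276 to 1.10 in treated libraries, with Cd3e, Adgre1 and Lyz2 among those at 0 in all groups. Summed stromal and endothelial markers (7) were 2.14 to 3.76 FPKM. Summed blood markers (5) were 0.0448 to 0.0951 FPKM in NC, 0.713 to 0.848 with MK1775 and 1.04 to 1.08 under the siRNA label. In the treated groups nearly all of this was Itga2b. In such bulk RNA, fewer cells of a type and less RNA per cell cannot be told apart.

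Of the 10 genes, 5 reached the mean of 1 FPKM over the 9 libraries that was asked for a test (Areg, Hbegf, Tgfa, Erbb2 and Errfi1), and each of those did so in every group. The other 5 (Egfr, Erbb3, Ereg, Btc and Epgn) had means of 0.0149 to 0.571. Thus 3 ligands and 1 receptor were above this level, and Egfr was far under it.

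Promoter sequences are shown for the member that rose in both treated groups (Areg), the member that fell (Erbb2) and the most abundant member, which passed no test (Errfi1). Each is the 250 bases before the annotated start, 5′ to 3′ on the gene's strand, from RefSeq on GRCm38.p6, and capitals mark a cAMP response element (CRE, TGACGTCA).

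Areg, chr5:91139349-91139598, plus strand: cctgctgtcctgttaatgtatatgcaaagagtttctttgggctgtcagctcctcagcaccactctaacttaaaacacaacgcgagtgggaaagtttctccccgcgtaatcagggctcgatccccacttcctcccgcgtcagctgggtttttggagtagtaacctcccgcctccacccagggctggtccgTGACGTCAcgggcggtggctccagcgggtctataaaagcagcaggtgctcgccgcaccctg

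Errfi1, chr4:150854820-150855069, plus strand: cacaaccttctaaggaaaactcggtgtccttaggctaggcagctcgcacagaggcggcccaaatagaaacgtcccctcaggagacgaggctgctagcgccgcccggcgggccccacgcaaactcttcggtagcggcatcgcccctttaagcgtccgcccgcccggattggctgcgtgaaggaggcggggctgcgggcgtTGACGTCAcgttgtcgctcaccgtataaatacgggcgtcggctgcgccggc

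Erbb2, chr11:98412234-98412483, plus strand: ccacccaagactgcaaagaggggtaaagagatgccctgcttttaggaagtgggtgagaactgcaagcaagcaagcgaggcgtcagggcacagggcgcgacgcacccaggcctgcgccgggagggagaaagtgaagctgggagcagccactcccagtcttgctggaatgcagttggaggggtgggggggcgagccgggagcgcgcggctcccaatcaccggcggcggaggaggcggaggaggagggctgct

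The CRE, a palindrome bound by factors of the CREB and ATF families, began 61 bases before the start of Areg and 51 bases before that of Errfi1 (the downstream of its windows). It was found in 2 of the 8 promoter windows that matched 7 of the members by symbol, and in 1.79% of all 32851 windows of 300 bases (250 before the start and 50 after). Hbegf, Ereg and Erbb3 had no window, so their promoters were not searched for any motif. The AP-1 motif (TGANTCA) and the C/EBP-ATF motif (TGATGCAA), on either strand, were in none of the 8 windows, against 7.81% and 0.895% of all windows. The Sp1 motif (GGGCGG, either strand) was in the windows of Areg, Errfi1, Tgfa and Egfr, and in 35.7% of all windows. In the Areg sequence a GGGCGG follows the CRE with 1 base between them. A match describes letters only.

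Areg transcripts were higher in both treated groups. The gene spans chr5:91287458-91296291 (plus strand, GRCm39 as in the deposited table) and has 1 annotated transcript of 6 exons. Its FPKM was 13.7, 15.8 and 14.6 in NC, 21.8, 21.5 and 22 with MK1775, and 23, 22.2 and 23.3 under the Wee1 siRNA label. All 6 treated libraries lay above all 3 NC libraries. The means were 14.7 ± 1.04 in NC, 21.8 ± 0.25 with MK1775 (1.48-fold) and 22.8 ± 0.549 under the siRNA label (1.55-fold; SD, n = 3). On the log2(FPKM + 1) scale Areg rose by 0.54 with MK1775 (SE 0.056, 95% interval 0.41 to 0.67, limma adjusted p = 0.000183). Under the siRNA label it rose by 0.60 (SE 0.056, 0.47 to 0.73, limma adjusted p = 1e-04). An exact permutation test of 3 against 3 cannot go below the p of 0.1 that Areg had in both. Both comparisons use the same NC libraries. With MK1775, 2 of the 5 members tested passed, 1 higher and 1 lower, where 41% of all 10453 genes tested passed (17.9% higher, 23.1% lower). In the libraries under the siRNA label 2 of 5 passed as well, where 42.8% of all genes did (19.6% higher, 23.2% lower), so the count of members was near the background in both.

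Hbegf was the most abundant ligand transcript in every library. It spans chr18:36637980-36648858 (minus strand), and 1 of its 3 transcripts, of 6 exons, held nearly all of its FPKM. Its values were 31.8, 34.8 and 32.2 FPKM in NC, 32.6, 33.4 and 33.8 with MK1775, and 29.3, 31 and 30.7 under the siRNA label. The MK1775 values lay among those of NC, and the siRNA-label values lay just below both other groups. The difference from NC was 0.01 with MK1775 (log2, 95% interval -0.10 to 0.13, limma adjusted p = 0.86) and -0.12 under the siRNA label (-0.23 to 0.00, limma adjusted p = 0.0916), and neither passed.

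Tgfa (chr6:86172205-86252701, plus strand) was the third ligand. Its FPKM was 8.88, 7.97 and 8.82 in NC, 9.29, 9.39 and 9.24 with MK1775, and 9.54, 9.43 and 9.48 under the siRNA label. Both treated groups lay above NC without overlap, but the difference was small, at 0.11 (log2, 95% interval -0.02 to 0.24, limma adjusted p = 0.152) and 0.13 (0.01 to 0.26, limma adjusted p = 0.0839), and did not pass. Under quantile normalization it passed in both comparisons, at 0.17 (adjusted p = 0.0385) and 0.17 (adjusted p = 0.0339), and under median-of-ratios scaling in the siRNA-label one, at 0.16 (adjusted p = 0.0465). With MK1775, 3 of the 5 members did not overlap NC, 2 higher and 1 lower, against 54% of all genes tested (23.8% higher, 30.1% lower). Under the siRNA label 4 of 5 did not, 2 higher and 2 lower, against 52.2% of all genes (24.1% higher, 28.1% lower).

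**Figure D1:**
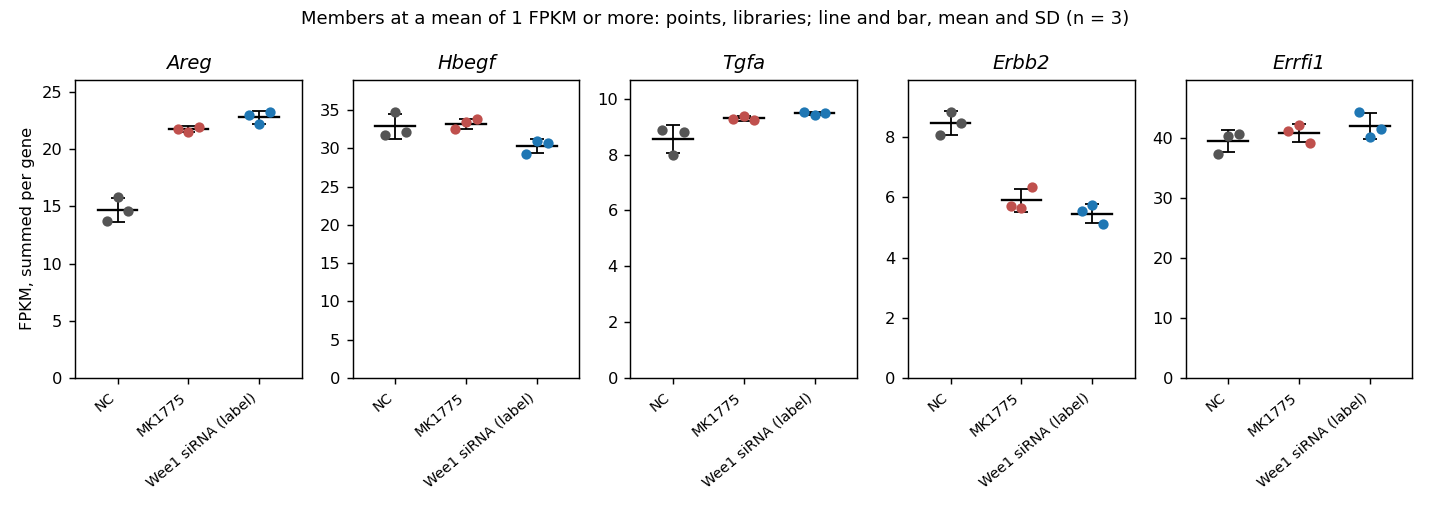
FPKM of the 5 members with a mean of at least 1 FPKM, by group; points are libraries, and the line and bar are the mean and SD of 3 libraries. The treated libraries lie above NC for Areg (21.5 to 23.3 against 13.7 to 15.8 FPKM) and below NC for Erbb2 (5.11 to 6.34 against 8.07 to 8.85 FPKM).

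The remaining ligands were barely detected. Epgn, Ereg, Areg and Btc lie in this order within 375531 bases of chromosome 5, with gaps of 39406, 45952 and 208828 bases between them, the last gene on the opposite strand. Ereg was listed at 0 in the 3 NC libraries, at 0.0275, 0.0293 and 0.0163 FPKM with MK1775, and at 0, 0 and 0.0608 under the siRNA label. Btc was at 0.0599, 0.0226 and 0.0549 FPKM in NC, 0.0945, 0.199 and 0.136 with MK1775, and 0.113, 0.23 and 0.128 under the siRNA label. Epgn was at 0.0688, 0.0654 and 0.0516 FPKM in NC, 0.108, 0 and 0 with MK1775, and listed at 0 in all 3 siRNA-label libraries. Btc was thus higher in each treated library than in any NC library, and Epgn, which keratinocytes are known to make, was seen mostly in NC, all at levels where a library's value can rest on very few fragments. Areg was the only one of the 4 neighbours to reach 1 FPKM in any library.

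**Figure D2:**
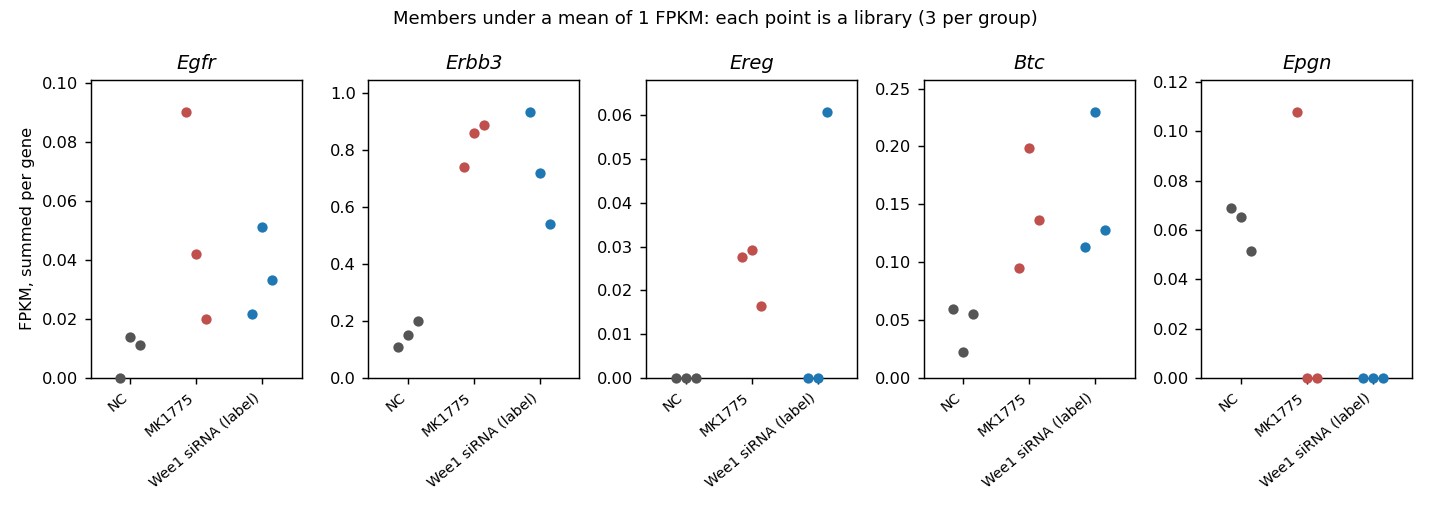
FPKM of the 5 members under a mean of 1 FPKM, by group; each point is a library, and the vertical axes differ between panels and start at 0. Erbb3 lies at 0.11 to 0.198 FPKM in NC and 0.54 to 0.935 in treated libraries, while the other 4 do not exceed 0.23 FPKM.

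Erbb2 transcripts were lower in both treated groups. The gene spans chr11:98303296-98328542 (plus strand), and its last 9 bases overlap Mien1 on the other strand, which was at 17.0 ± 0.488 FPKM in NC, 17.9 ± 1.33 with MK1775 and 17.1 ± 1.88 under the siRNA label (SD, n = 3). Erbb2 was at 8.07, 8.85 and 8.48 FPKM in NC, 5.72, 5.65 and 6.34 with MK1775, and 5.54, 5.74 and 5.11 under the siRNA label. Every treated library lay below every NC library. The means were 8.47 ± 0.391, 5.90 ± 0.379 (1.43-fold lower) and 5.46 ± 0.32 (1.55-fold lower; SD, n = 3). The log2 difference of Erbb2 was -0.46 with MK1775 (SE 0.07, 95% interval -0.62 to -0.30, limma adjusted p = 0.00122). It was -0.55 under the siRNA label (SE 0.07, -0.71 to -0.39, limma adjusted p = 0.00045).

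The transcript of 27 exons held most of the FPKM, at 8.02 ± 0.854 in NC, 5.54 ± 0.223 with MK1775 and 4.42 ± 1.55 under the siRNA label (SD, n = 3). In replicate 1 of the siRNA label the transcript of 26 exons was as high, at 2.82 FPKM against 2.71. On the most abundant transcript alone, the difference with MK1775 was -0.46 and did not pass (limma adjusted p = 0.127), while the siRNA-label difference was larger, at -0.78 (adjusted p = 0.0207).

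Erbb3, the neuregulin receptor, rose from a very low level. It spans chr10:128403392-128425521 (minus strand), with 1 annotated transcript of 28 exons. Its FPKM was 0.11, 0.152 and 0.198 in NC, 0.74, 0.861 and 0.887 with MK1775, and 0.935, 0.719 and 0.54 under the siRNA label. The lowest treated library was above the highest NC library, and the means differed 5.41-fold and 4.77-fold, at 0.153 ± 0.044, 0.829 ± 0.0788 and 0.731 ± 0.198 (SD, n = 3). Its mean of 0.571 FPKM kept it out of the main test. In the fit with no filter on low values it passed, at 0.67 with MK1775 (log2 of FPKM + 1, SE 0.1, limma adjusted p = 0.00304) and 0.58 under the siRNA label (SE 0.1, adjusted p = 0.00524), where 17.7% and 20.2% of 28692 genes passed. Between the treated groups Erbb3 differed by 0.08 in that fit and did not pass (adjusted p = 0.795), where 0.0383% of genes did. Other genes near 0 in NC also had higher mean values in the treated groups. Among them were the immune marker Itgam (0, 0.277 and 0.451 FPKM on average in NC, MK1775 and siRNA-label libraries) and the platelet marker Itga2b (0.042, 0.762 and 1.06 FPKM). The epithelial marker Epcam did so too (0.0573, 0.435 and 0.421 FPKM), while Cldn7 was lower (0.084, 0.0142 and 0.037 FPKM). The part of such genes in the result was not tested.

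Egfr, the receptor of Areg and Tgfa, was close to 0 in every library. The gene spans chr11:16702203-16868158 (plus strand), and its values were 0, 0.014 and 0.0113 FPKM in NC, 0.0902, 0.042 and 0.0198 with MK1775, and 0.0216, 0.0511 and 0.0332 under the siRNA label. The treated values lay above those of NC, and all 9 were under 0.1 FPKM. An assembled locus without a gene name, on the minus strand inside the span of Egfr (chr11:16734727-16741365), held far more, at 4.46, 3 and 3.22 FPKM in NC, 2.85, 2.5 and 2.42 with MK1775, and 1.53, 2.76 and 2.74 under the siRNA label. Erbb4, the remaining receptor of the family, was listed at 0 in 8 of the 9 libraries and at 0.00345 FPKM in the other. Erbb2 therefore made up 97.6% to 98.7% of the FPKM summed over Egfr, Erbb2 and Erbb3 in NC, 86.2% to 87.5% with MK1775 and 85.3% to 89.9% under the siRNA label.

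**Figure D3:**
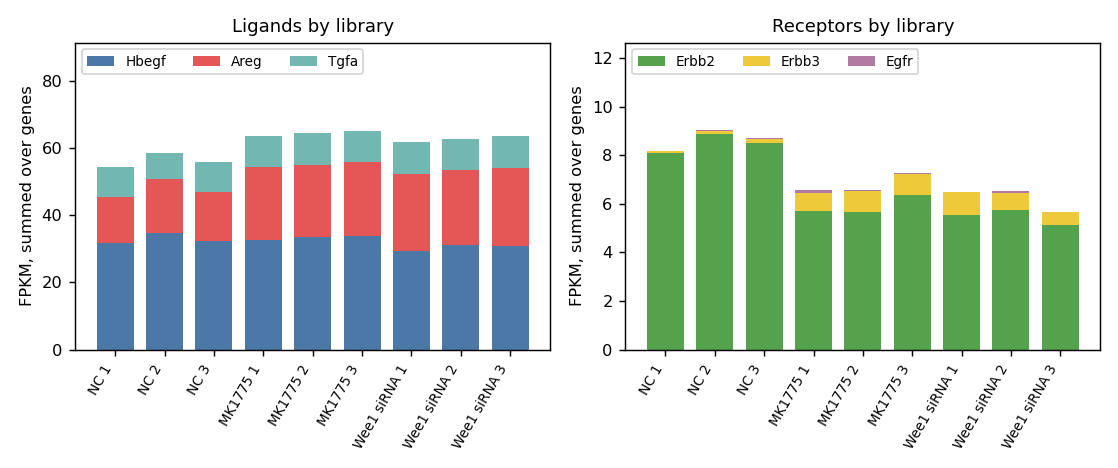
FPKM summed over the ligands Hbegf, Areg and Tgfa (left) and the receptors Erbb2, Erbb3 and Egfr (right), 1 bar per library. Areg makes up 25.2% to 26.9% of ligand FPKM in NC and 33.4% to 37.1% in treated libraries.

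The balance among the 6 ligands moved with Areg. Their FPKM summed to 54.5, 58.7 and 55.8 in NC, 63.9, 64.5 and 65.2 with MK1775, and 61.9, 62.9 and 63.7 under the siRNA label. The share of Hbegf in this sum was 57.8% to 59.3% in NC, 51% to 51.8% with MK1775 and 47.3% to 49.3% under the siRNA label. Ereg, Btc and Epgn together never exceeded 0.23 FPKM. The 3 receptors of the set summed to 8.18 to 9.02 FPKM in NC, 6.55 to 7.25 with MK1775 and 5.68 to 6.51 under the siRNA label. These sums describe transcripts only and carry no test, since the members were chosen with earlier results known.

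Errfi1, which binds the kinase domain of active receptors and is itself induced by EGF signalling, was the most abundant member and did not change detectably. It spans chr4:150938376-150953349 (plus strand). Its FPKM was 37.3, 40.4 and 40.7 in NC, 41.2, 42.1 and 39.1 with MK1775, and 44.4, 40.2 and 41.5 under the siRNA label, and the groups overlapped. The difference from NC was 0.05 with MK1775 (log2, 95% interval -0.08 to 0.18, limma adjusted p = 0.557) and 0.09 under the siRNA label (-0.04 to 0.22, adjusted p = 0.249). The intervals leave room for a change of up to 0.22 on this scale.

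By level per length, the order in NC was Errfi1 (39.5 ± 1.87 FPKM), Hbegf (32.9 ± 1.66), Areg (14.7 ± 1.04), Tgfa (8.56 ± 0.512) and Erbb2 (8.47 ± 0.391; SD, n = 3). Tgfa and Erbb2 overlapped in NC and were apart in both treated groups, at 9.30 ± 0.0778 and 5.90 ± 0.379 with MK1775 and 9.48 ± 0.0538 and 5.46 ± 0.32 under the siRNA label. All other neighbours in this order were apart in every group. Among the 10453 genes tested, Errfi1 stood above 88.2% in NC and Hbegf above 85.5%. Areg stood above 68.7% of genes in NC and above 78.9% and 79.9% in the treated groups, and Erbb2 above 53% in NC and above 43.6% and 39.7%.

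MK1775 and the libraries under the siRNA label did not differ detectably in any member tested. None of the 5 passed, where 1 of all 10453 genes did (0.00957%). The difference (MK1775 minus siRNA-label, log2) was -0.07 for Areg (95% interval -0.19 to 0.06), 0.10 for Erbb2 (-0.07 to 0.26), -0.03 for Tgfa (-0.15 to 0.10) and -0.04 for Errfi1 (-0.17 to 0.09), with limma adjusted p between 0.797 and 0.952 over the 5. Hbegf had the largest, at 0.13 (0.02 to 0.24, adjusted p = 0.797), with all 3 MK1775 libraries above the 3 under the siRNA label. Of the 5, 1 was higher without overlap (Hbegf) and 2 lower (Areg and Tgfa), against 11.9% of all genes (5.08% higher, 6.78% lower). A p above the threshold does not show that the groups act alike, and the intervals give the differences that remain possible.

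**Figure D4:**
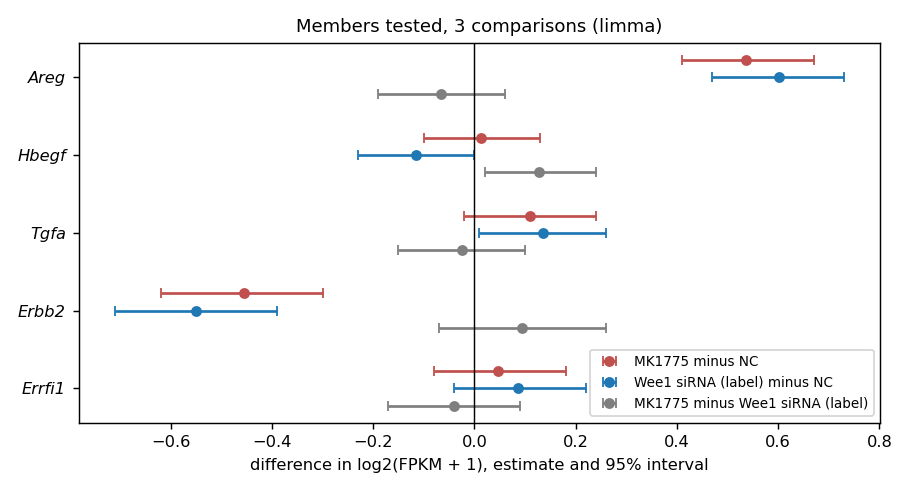
Differences in log2(FPKM + 1) for the 5 members tested, with 95% intervals, in the 3 comparisons; the first 2 comparisons share the NC libraries. Areg lies right of 0 (0.54 and 0.60) and Erbb2 left of 0 (-0.46 and -0.55) against NC, and the direct comparison of the treated groups stays within -0.19 and 0.26.

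The genes whose values ran most like those of a member over the 9 libraries were found by Pearson's r of log2(FPKM + 1), as a description of 3 groups that share NC. For Areg they were H2-Q7 (r = 0.995) and Cwc25 (0.993), for Erbb2 Gsto1 (0.997), and for Tgfa Bach1 (0.979) and Sptlc2 (0.977). For Hbegf they were Hacd2 (0.924) and Arpc3 (0.911), and for Errfi1 Wdr33 (0.944) and Smad4 (0.91), lower than for Areg and Erbb2.

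The other genes of the pathway were taken from 6 lists of 78 genes in all, of which 70 were tested. With MK1775, 11 were higher and 14 lower, and under the siRNA label 14 and 14. Over all genes tested 17.9% were higher and 23.1% lower with MK1775, and 19.6% and 23.2% under the siRNA label. The pooled counts were thus near the background, but the lower genes were unevenly spread over the lists. Of them, 9 with MK1775 and 8 under the siRNA label were among the 18 transcripts induced by MAP kinase signalling, described last. The medians of the 70 were -0.09 and -0.03 on the log2 scale, beside -0.04 and -0.01 over all genes tested. Of the 6 further receptor and ligand genes 2 were tested. The neuregulin Nrg1, a ligand of Erbb3 and Erbb4, rose from 2.99 ± 0.155 FPKM to 3.86 ± 0.331 with MK1775 (limma adjusted p = 0.0181) and 3.75 ± 0.171 under the siRNA label (adjusted p = 0.0273; SD, n = 3). Nrg2 fell from 2.73 ± 0.12 FPKM to 1.52 ± 0.114 and 1.65 ± 0.342 (adjusted p = 0.00347 and 0.00596). The rise of Nrg1 did not pass without NC replicate 2 or 3 in either comparison (adjusted p = 0.0528 to 0.0813), without MK1775 replicate 1 or 2 (0.0644 and 0.0656), or without replicate 1 or 2 of the siRNA label (0.0537 and 0.0858). Egf itself was at 0.0454, 0.0232 and 0 FPKM in NC and 0.104 to 0.226 in treated libraries.

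Of 9 genes of ligand shedding 7 were tested, and 1 fell in each comparison, where 23.1% and 23.2% of all genes tested fell. The list's medians were -0.14 and -0.18 (log2). The gene that fell was Rhbdl2, a rhomboid protease of the cell surface, which went from 8.99 ± 0.352 FPKM in NC to 5.18 ± 0.506 and 5.19 ± 0.677 (SD, n = 3; limma adjusted p = 0.000752 and 0.000706). Rhbdf1, a pseudoprotease that takes part in the maturation of Adam17, was at 11.1 ± 0.219, 8.14 ± 2.15 and 9.67 ± 1.51 FPKM and did not pass (adjusted p = 0.0692 and 0.4). Without MK1775 replicate 3 Rhbdf1 was at -0.61 and passed (adjusted p = 0.0063). Over all 22 alternatives its difference with MK1775 ranged from -0.672 to -0.012, with limma adjusted p up to 0.852, and it passed in 3. Adam17, the main sheddase of Areg, Hbegf and Tgfa, was at 5.98, 6.31 and 5.79 FPKM in NC, 6.64, 14.5 and 6.19 with MK1775, and 7.06, 13.8 and 6.46 under the siRNA label. Replicate 2 of each treated group stood high, and the comparisons did not pass (adjusted p = 0.353 and 0.321).

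Of 15 genes listed under receptor downregulation 14 were tested, and 3 rose and none fell in each comparison. A place in this list does not show that a gene removes receptors. Of all genes tested 17.9% and 19.6% rose, so 3 of 14 was near the background, and the list's medians were 0.02 and 0.08 (log2). Hgs, which sorts ubiquitin-tagged receptors on endosomes, rose from 18.4 ± 0.682 FPKM to 32.9 ± 0.906 with MK1775 and 31.3 ± 1.95 under the siRNA label (SD, n = 3; limma adjusted p = 2.45e-05 and 4.1e-05). Stam2, its partner, rose from 10.0 ± 0.0472 FPKM to 15.7 ± 0.238 and 15.5 ± 1.06 (adjusted p = 0.000102 and 0.000116). The third was Lrig2, at 1.62 ± 0.19, 3.32 ± 0.0395 and 3.11 ± 0.244 FPKM (adjusted p = 0.000251 and 0.000417). Lrig1, an inhibitor of the receptors, was at 28.6 ± 1.72 FPKM in NC and 24.8 ± 2.02 with MK1775 (adjusted p = 0.055), and passed without NC replicate 1 (0.0423) or MK1775 replicate 3 (0.02).

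Of 17 adaptors and kinases tested, 2 rose and 2 fell with MK1775 and 4 rose and 2 fell under the siRNA label. Of all genes tested 41% and 42.8% passed in either direction, so these counts were not above the background, and the list's medians were -0.02 and 0.04 (log2). Map2k1 (MEK1) rose from 29.6 ± 0.629 FPKM to 38.0 ± 1.66 and 38.9 ± 0.94 (SD, n = 3; limma adjusted p = 0.000554 and 0.000349). Mapk3 (ERK1), the kinase that MEK1 activates, fell from 27.8 ± 1.55 FPKM to 19.1 ± 1.02 and 18.4 ± 1.35 (adjusted p = 0.000681 and 0.000409), and both calls held in each alternative tried. The adaptor Grb2 rose from 27.3 ± 2.01 FPKM to 35.3 ± 2.05 and 33.0 ± 3.26 (adjusted p = 0.0101 and 0.0342), and the adaptor Shc1 fell from 21.4 ± 2.73 FPKM to 8.98 ± 3.69 and 12.0 ± 0.884 (adjusted p = 0.00622 and 0.0417). Under the siRNA label the call of Shc1 was lost without any 1 library of NC or of that label, or without MK1775 replicate 1 (adjusted p = 0.0536 to 0.121), and that of Grb2 without NC replicate 1 or 3, MK1775 replicate 1 or replicate 1 or 2 of that label (0.0522 to 0.0994). Braf and the exchange factor Sos2 passed under the siRNA label (0.52 and 0.46, adjusted p = 0.014 and 0.0347) and not with MK1775 (0.24 and 0.26, adjusted p = 0.187 and 0.203), and between the treated groups they did not differ detectably (adjusted p = 0.852 and 0.87). Leaving out NC replicate 3 ended the call of Braf (0.0504), and leaving out NC replicate 2 or 3 or any library of that label ended that of Sos2 (0.0543 to 0.109). Without NC replicate 1 Braf passed with MK1775 too (0.0284), as did Sos2 without MK1775 replicate 2 (0.0298). Of 12 genes of the PI3K, Akt, Plcg and Stat list, 1 rose and 1 fell with MK1775 and 2 rose and 2 fell under the siRNA label, against the same 41% and 42.8% of all genes, with medians of 0.03 and 0.11 (log2). Akt1 fell from 219 ± 13 FPKM to 138 ± 3.98 and 133 ± 8.13 (adjusted p = 9.08e-05 and 6.12e-05). Stat3 rose from 10.9 ± 0.347 FPKM to 14.6 ± 0.783 and 14.8 ± 0.246 (adjusted p = 0.000829 and 0.00058), and not on its most abundant transcript alone (adjusted p = 0.0951 and 0.0844). Under the siRNA label Akt2 also fell (-0.21, adjusted p = 0.0233), and with MK1775 it was at -0.17 (adjusted p = 0.0561). The call of Akt2 was lost under 8 of 22 alternatives. Among them were leaving out NC replicate 2 or 3 or replicate 3 of that label (0.056 to 0.0727). Median-of-ratios scaling (0.067), quantile normalization (0.0889), a fit of only the 2 groups compared (0.0616) and the most abundant transcript alone (0.264) ended it too. With MK1775, Akt2 passed under 6 of 22 alternatives, among them without NC replicate 1 or without replicate 3 of the siRNA label (0.0458 and 0.0255). The others were a fit of only the 2 groups compared (0.0438), weights on the libraries (0.0042), a filter at a mean of 5 FPKM (0.0486) and unnamed transcripts added (0.0347).

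Of 18 transcripts known to be induced by MAP kinase signalling, all tested, 9 fell and 4 rose with MK1775, where 23.1% of all genes tested fell and 17.9% rose. Under the siRNA label 8 fell and 4 rose, where 23.2% of all genes fell and 19.6% rose. The medians were -0.37 and -0.23 (log2) beside -0.04 and -0.01 over all genes, and no test was made of the list itself. By the rule for named genes the leading 2 were Egr1, an early response transcription factor, which rose from 2.61 ± 0.0821 FPKM to 18.6 ± 0.632 and 18.7 ± 1.51 (SD, n = 3; limma adjusted p = 2.02e-07 and 1.79e-07), and the ephrin receptor Epha2, which rose from 40.9 ± 1.54 FPKM to 88.4 ± 3.67 and 80.1 ± 3.48 (adjusted p = 3.14e-06 and 7.01e-06). Both rose while most of the list did not. The following genes were chosen after their values were seen.

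Dusp6, the phosphatase that removes the activating phosphates of ERK, was at 36, 40 and 39.5 FPKM in NC, 16.9, 19 and 17.3 with MK1775, and 17.7, 17.3 and 16 under the siRNA label. Spry1, an inhibitor of Ras activation, was at 9.87, 9.2 and 8.81 FPKM in NC, 2.11, 2.56 and 3.42 with MK1775, and 3.3, 3.37 and 3.02 under the siRNA label. In both genes every treated library lay below every NC library, and the differences with MK1775 were -1.08 for Dusp6 (log2, limma adjusted p = 1.36e-05) and -1.49 for Spry1 (adjusted p = 6.24e-05). The relatives Spry2 (-0.47) and Spry4 (-0.58), the phosphatase Dusp4 (-0.56), the Ets factor Etv5 (-0.55) and cyclin D1 (Ccnd1, -0.77) also fell with MK1775, and under the siRNA label they fell too (-0.39, -0.70, -0.58, -0.67 and -0.94). Phlda1 (0.52) and Myc (0.48) rose with MK1775, and by 0.52 and 0.37 under the siRNA label. On its most abundant transcript alone Myc did not pass (adjusted p = 0.0705 and 0.71). The falls of Dusp5 (-0.27) and Ier3 (-0.19) with MK1775 did not pass under median-of-ratios scaling (adjusted p = 0.0705 and 0.0656). Without NC replicate 1 or 2, or MK1775 replicate 1 or 2, Dusp5 did not pass either (adjusted p = 0.0531 to 0.0914), and nor did Ier3 without NC replicate 3 or MK1775 replicate 2 (0.059 and 0.0586).

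**Figure D5:**
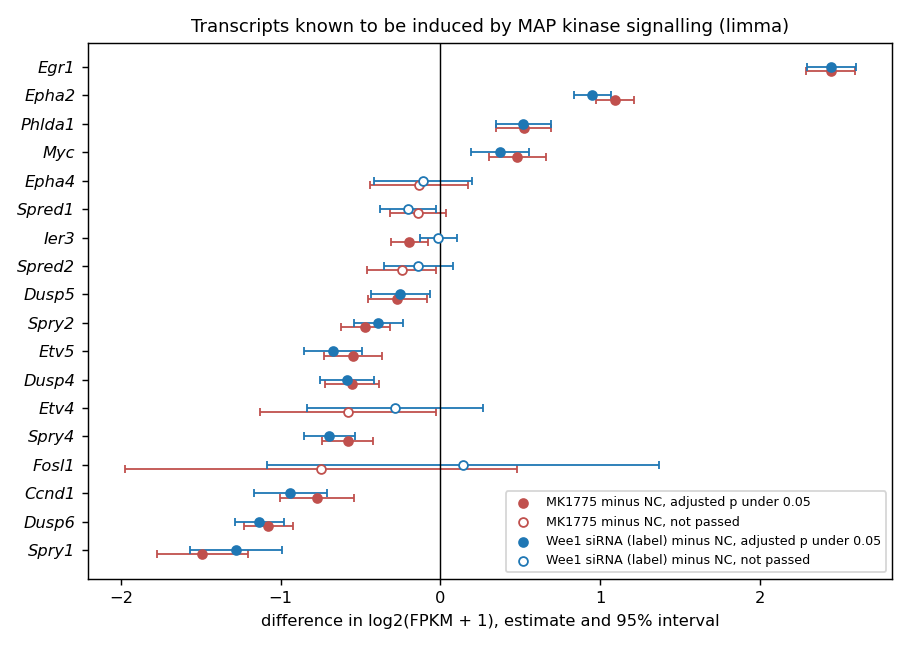
Differences in log2(FPKM + 1) from NC, with 95% intervals, for the 18 transcripts known to be induced by MAP kinase signalling; filled points have an adjusted p under 0.05. Spry1, Dusp6 and Ccnd1 lie lowest with MK1775 (-1.49, -1.08 and -0.77) and Egr1 and Epha2 highest (2.44 and 1.09).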

How the data were processed

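RNA of 4T1 cells was measured by RNA-seq in 9 libraries of 3 groups. Libraries came from 1.0 µg of total RNA (RNeasy extraction, NEBNext Ultra kit), per the labels' protocols. The sources used here do not give strand or poly(A) selection. Per the submitters' processing notes, FastQC, Trim Galore, HISAT2 and StringTie were used with GRCm39, without versions. The authors deposited FPKM per transcript for 158719 transcripts, of which 17991 carry no gene name. Low values were not whole multiples of a common step, so reads were not recovered and the depth is unknown. At the best of many steps tried, at most 35.6% of low values came within 0.1 of a whole multiple in any library. Even spread gives 20% for any given step, and the best of many steps can lie higher.

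FPKM were summed per gene name, and 19 names on more than 1 chromosome were left out. The 10453 genes whose mean reached 1 FPKM were tested on log2(FPKM + 1), a scale that understates the change of low genes, with limma 3.58.1 in R 4.3.3 (eBayes with trend, 3 group means, no covariate), two-sided with Benjamini-Hochberg adjustment over all genes tested and a threshold of 0.05. The fit was tested on simulated data. Promoters and motifs were read with Python 3.11.15, and figures were drawn with matplotlib 3.10.9. Because strand is unstated, the reads of a gene and of an overlapping or antisense neighbour cannot be separated.

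The members and lists were chosen with earlier results of these data known. The rule for named genes was all 10 members, Wee1, the 2 tested genes of each list with the smallest adjusted p with MK1775, and the 2 genes most like each tested member; some genes that these rules or counts include are not reported here. Lrig1, Lrig2, Grb2, Shc1, Sos2, Braf, Akt2, Egf, Erbb4, Adam17, Mien1 and the marker genes fall outside it, chosen with their values in view. So do Dusp4, Dusp5, Dusp6, Spry1, Spry2, Spry4, Etv5, Ccnd1, Phlda1, Myc and Ier3. Alternatives were other pseudocounts, filters, scalings, transcripts, weights and fits, and leaving out each library.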

Additional observations from a re-analysis of the deposited data

Results flagged for a closer look

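Egfros, an antisense gene within the span of Egfr that enters no comparison, was listed at 0 in all 3 NC libraries and averaged 0.0466 FPKM with MK1775 and 0.0267 FPKM under the Wee1 siRNA label, with a value above 0 in all 6 treated libraries. At such levels a library's value can rest on very few fragments. Because strand is unstated, reads of Egfros and of Egfr cannot be separated where they overlap. The difference was not tested.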

How the results depend on the processing

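Of the members, 2 passed in each comparison with NC. With the most abundant transcript per gene the first count was 1, and with an added log2 limit of 1 both were 0. In the direct comparison the count was 0 under every alternative. Areg kept its direction and call against NC under 22 of 22 alternatives in both comparisons (0.49 to 0.60 with MK1775, 0.56 to 0.66 under the siRNA label), Erbb2 under 21 of 22 and 22 of 22. Hbegf with MK1775 ranged from -0.012 (without NC replicate 1; -0.002 without NC replicate 3) to 0.053 (without NC replicate 2) over the libraries left out, not passing. With unnamed transcripts added, Adam17 was at -0.011 with MK1775. Under the siRNA label Rhbdf1 was at 0.008 with unnamed transcripts added, and Ier3 at 0.021 (common total), 0.016 (median-of-ratios), 0.036 (quantile), 0.008 (without NC replicate 2) and 0.007 (without NC replicate 3), with -0.057 the lowest (without NC replicate 1). The cause was not tested. There 12 of 22 alternatives ended the call of Shc1 and of Dusp5. With the replicate number as a block, 2, 2 and 0 members passed, and among all genes tested 3881, 4079 and 0 in place of 4282, 4474 and 1. It gave Rhbdf1 with MK1775 an adjusted p of 0.0415 and Akt2 under the siRNA label one of 0.0529. Same-numbered libraries did not deviate together over all genes tested (r of -0.12 to 0.04). This cannot show whether they share a culture or a preparation, which the labels do not state. The labels state no batch, and precision is limited by 3 libraries a group and an unknown depth.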
